A study of Corylus heterophylla with 6 samples.

Results

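The clustered ChARF3 peaks were those that had another peak of the same list within 10 kb, edge to edge on the same contig. ChARF3 is a hazel auxin response factor, and its binding was measured by ChIP-Seq in ovules of Corylus heterophylla at 3 stages. Members were chosen by the measured positions of the called peaks, and neighbouring members were chained into clusters. In all, 444 of the 3669 peaks (12.1%) were members and formed 213 clusters, of which 196 were pairs and 17 held 3 or more peaks. The lists held 273 clustered peaks of 1412 in Ov1.1 (ovule formation), 114 of 1364 in Ov2.1 (early ovule growth) and 57 of 893 in Ov3.1 (rapid ovule growth). Contig tig00007282 was left out with its 8, 25 and 20 peaks in these lists, and the other 1404, 1339 and 873 peaks were used.

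Each stage had 1 ChIP library, made from medium-sized ovules fixed with 1% formaldehyde and precipitated with a polyclonal antibody against ChARF3, and 1 input library made without the antibody. The labels give no treatment, mutation or transgene for any library. The sample labels name the plants as wild germplasm, whereas the methods of the study name the hybrid cultivar Dawei. The antibody was raised against amino acids 1 to 380 of the protein, and the chromatin was sheared to 200 to 600 bp. With 1 ChIP library a stage, differences between stages are differences between libraries, and no test between stages was possible. Intervals below are exact Clopper-Pearson 95% intervals, which cover counting error only and treat peaks as independent, although peaks of a pair enter a share together.

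Auxin response factors are transcription factors that bind short auxin response elements in the regulatory DNA of their target genes. The hazel factors are numbered by their place on the chromosomes, so the name ChARF3 does not mark it as the counterpart of Arabidopsis ARF3. Several binding sites of such a factor can lie near 1 gene.

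Clustered peaks made up the largest share of the list at Ov1.1, where 273 of 1404 peaks were members (19.4%, 17.4 to 21.6%). At Ov2.1 the share was 114 of 1339 (8.51%, 7.07 to 10.1%), and for Ov3.1 it was 57 of 873 (6.53%, 4.98 to 8.38%). The interval of Ov1.1 lay above those of both later stages, which overlapped each other. The other 1131, 1225 and 816 peaks are called isolated here.

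Lists with more peaks have closer neighbours by number alone, so the expected number of clustered peaks was computed for the same number of peaks placed uniformly, without overlap, within each contig. At Ov1.1, 273 peaks were clustered against 149.0 expected, a ratio of 1.83 (1.64 to 2.04). At Ov2.1, 114 were clustered against 114.5 expected, a ratio of 0.996 (0.828 to 1.19). At Ov3.1, 57 were clustered against 48.3 expected, a ratio of 1.18 (0.90 to 1.51). The Ov1.1 list thus held more clustered peaks than uniform placement gives, whereas the intervals of the Ov2.1 and Ov3.1 ratios included 1. With tig00007282 included, the ratios were 1.84, 1.08 and 1.40 by stage, and no intervals were computed for them. The Ov3.1 value then rested on 72 clustered peaks against 51.4 expected, so its nearness to 1 depends on leaving out this contig. The lists had 4.82, 4.52 and 3.03 peaks per Mb of contig span by stage, which the expectation takes into account. It takes no account of where genes or unmappable sequence lie, and the part of these in the ratios was not tested.

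**Figure D1:**
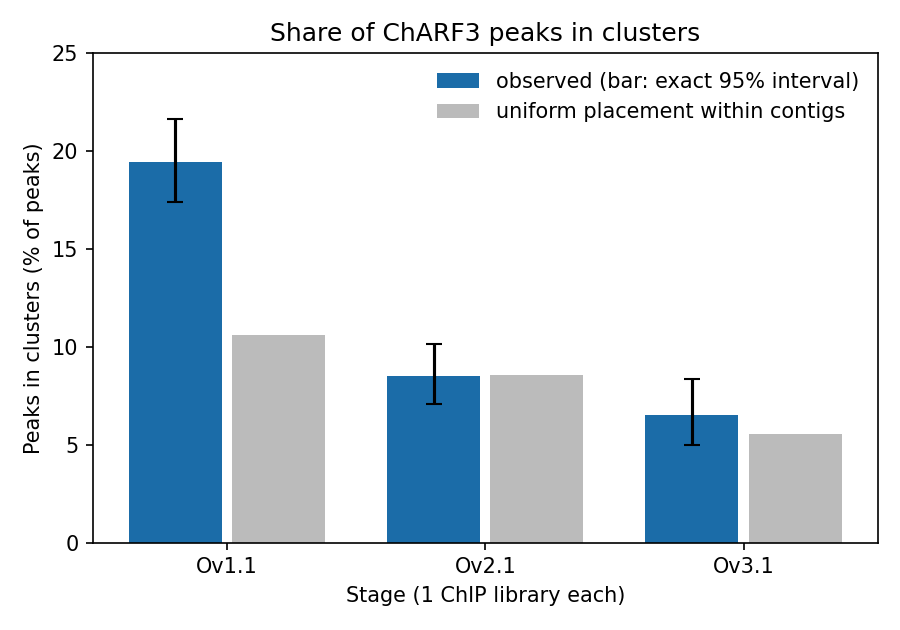
Percent of peaks in clusters at each stage, with the observed share (blue, error bar the exact 95% interval for counting error) beside the share given by uniform placement within contigs (grey). The observed share was 19.4% against 10.6% in Ov1.1, 8.51% against 8.55% in Ov2.1 and 6.53% against 5.53% in Ov3.1.

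The same order was seen in the number of clusters. At Ov1.1 there were 129 clusters against 71.5 expected, 56 against 55.9 for Ov2.1, and 28 against 23.8 for Ov3.1. Most clusters were pairs, with 115 in Ov1.1, 54 in Ov2.1 and 27 in Ov3.1. Clusters of 3 peaks numbered 13, 2 and 1 at these stages, and a single cluster of 4 peaks was found at Ov1.1. Clusters of 3 or more peaks were 10.9% of the clusters in Ov1.1 (6.06 to 17.5%), 3.57% in Ov2.1 (0.435 to 12.3%) and 3.57% in Ov3.1 (0.0904 to 18.3%), and these intervals overlapped. The median span of a cluster was 4707 bp in Ov1.1 (804 to 14340 bp), 6206.5 bp in Ov2.1 (1320 to 11396 bp) and 5796.5 bp in Ov3.1 (1131 to 11099 bp).

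Clusters were spread over 85 of the 272 contigs with peaks in Ov1.1, 48 of 258 in Ov2.1 and 24 of 230 in Ov3.1. More than 1 cluster lay on 25, 8 and 3 of these contigs. At Ov1.1, tig00007011 held 6 clusters with 13 of its 33 peaks (4.82 expected), and tig00007111 held 6 with 13 of its 29 peaks (2.98 expected). The contig with the most Ov1.1 peaks, tig00007112, had 12 of 49 clustered (7.29 expected). At Ov3.1, tig00007105 held 3 clusters with 6 of its 12 peaks (1.30 expected). The Ov1.1 clusters were therefore not gathered on a few contigs.

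The surplus at Ov1.1, relative to the expected number, was greatest at gaps of up to 1 kb, and the ratio in the class of 500 to 1000 bp (4.90) was above that in the class of 500 bp or less (4.13). Of the 144 gaps within Ov1.1 clusters, 17 were of 500 bp or less (4.11 expected), 20 of 500 to 1000 bp (4.08 expected) and 23 of 1 to 2 kb (8.09 expected). Another 34 gaps were of 2 to 5 kb (23.7 expected) and 50 of 5 to 10 kb (37.6 expected). The observed numbers were above the expected ones in each of the 5 classes at Ov1.1. At Ov2.1, no gap was of 500 bp or less (3.01 expected), and the classes above it held 3, 8, 18 and 29 gaps against 3.0, 5.98, 17.7 and 28.8 expected. At Ov3.1, the 5 classes held 1, 1, 3, 10 and 14 gaps against 1.25, 1.25, 2.49, 7.40 and 12.1 expected. The smallest gap was 248 bp in Ov1.1, 540 bp in Ov2.1 and 490 bp in Ov3.1, and the median was 3136.5, 4952 and 4948 bp. The expectation counts gaps from 0 bp up, also sizes below these smallest gaps. It can therefore be too high for the class of 500 bp or less, and the part of peak calling in that class was not tested. Gaps of 500 bp or less were shorter than the longest sheared fragments. With peaks this close merged into 1, the Ov1.1 ratio of clustered peaks was 1.69, and with peaks 1000 bp or less apart merged, a limit chosen after seeing the data, it was 1.49.

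**Figure D2:**
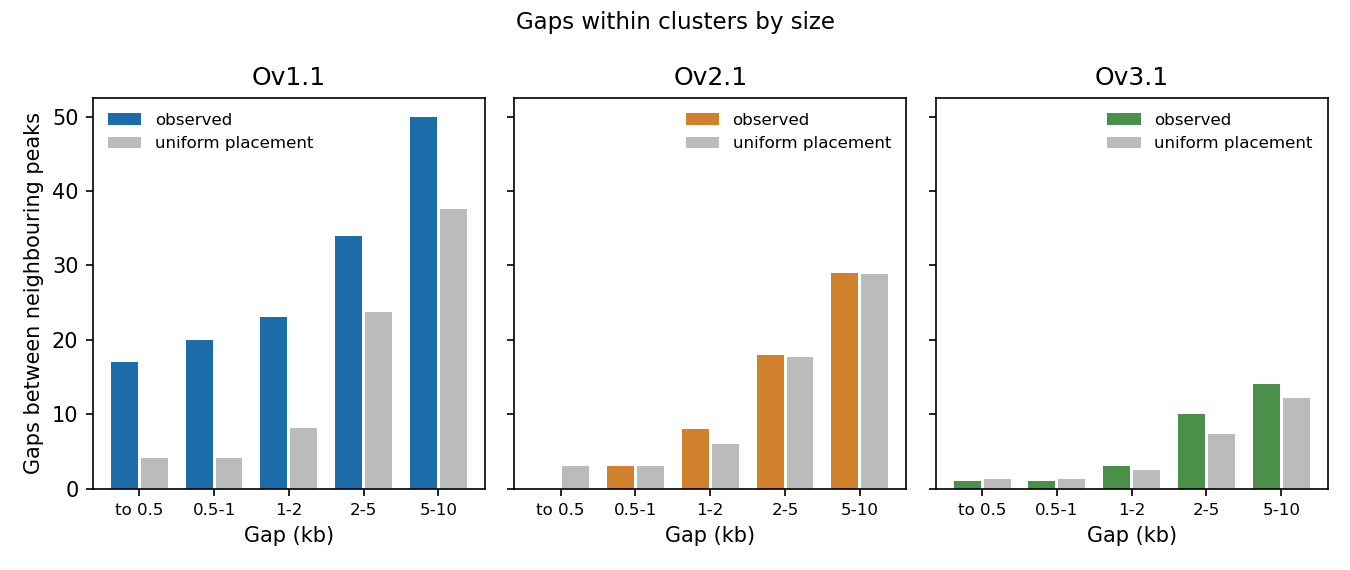
Number of gaps between neighbouring peaks within clusters, by gap size in kb, with observed numbers (coloured) beside those of uniform placement (grey), for Ov1.1, Ov2.1 and Ov3.1. The excess at Ov1.1 was 17 against 4.11 for gaps of up to 0.5 kb and 50 against 37.6 for gaps of 5 to 10 kb.

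With all gaps up to a given distance counted together, the ratio of observed to expected gaps at Ov1.1 was 4.13 at 0.5 kb, 4.51 at 1 kb, 3.68 at 2 kb, 2.35 at 5 kb and 1.86 at 10 kb. It was 1.51 at 20 kb, 1.18 at 50 kb and 1.06 at 100 kb, values that carry the surplus of the smaller gaps. At Ov2.1 the ratio was 0.498 at 1 kb, on 3 gaps, and lay between 0.917 and 1.03 from 2 to 100 kb. At Ov3.1 it was 0.801 at 1 kb, on 2 gaps, and lay between 1.00 and 1.21 from 2 to 100 kb. Within 1 kb of another peak lay 71 peaks in Ov1.1 (16.3 expected), 6 in Ov2.1 (12.01 expected) and 4 in Ov3.1 (4.99 expected). Counted by class, Ov1.1 gaps of 10 to 20 kb numbered 77 against 69.3 expected, those of 20 to 50 kb 157 against 174.2, and those of 50 to 100 kb 192 against 214.5. The surplus at Ov1.1 thus lay mainly within 10 kb.

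**Figure D3:**
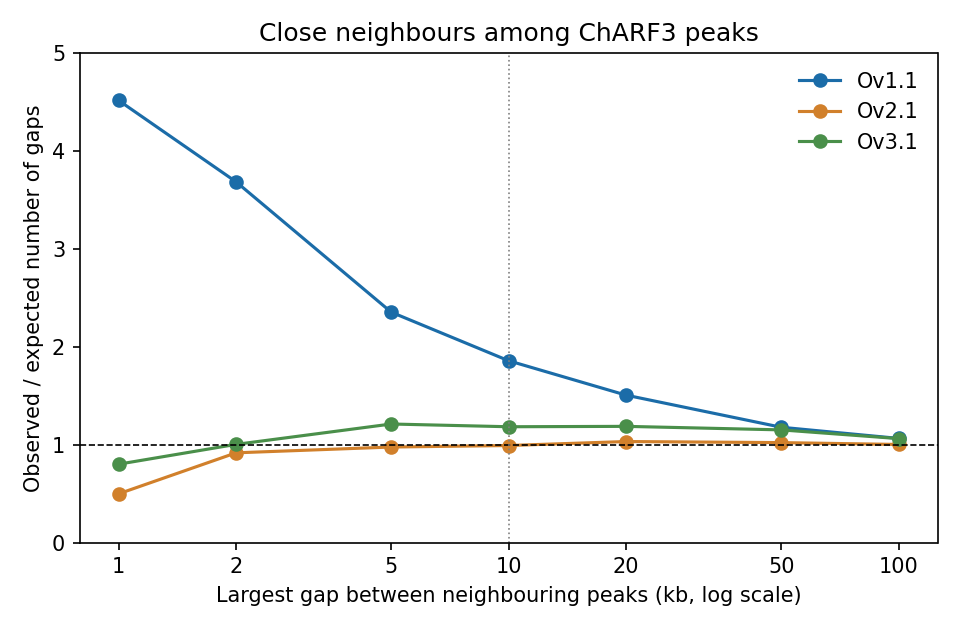
Ratio of observed to expected gaps between neighbouring peaks (y axis) of all sizes up to a given one (cumulative, x axis, kb, log scale) for Ov1.1, Ov2.1 and Ov3.1; the dashed line marks a ratio of 1 and the dotted line the limit of 10 kb. The Ov1.1 ratio was 4.51 at 1 kb and 1.06 at 100 kb, while those of Ov2.1 and Ov3.1 stayed near 1 from 2 kb on.

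The limit of 10 kb cut through a continuous range of gaps. Just inside it lay gaps of 9720 and 9945 bp in Ov1.1, 9912 and 9977 bp in Ov2.1, and 9795 and 9956 bp in Ov3.1. Just outside lay gaps of 10020 and 10118 bp in Ov1.1, 10298 and 10393 bp in Ov2.1, and 10305 and 10675 bp in Ov3.1.

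The number of ChIP fragments behind the peaks differed between the stages in the same order as the shares. Fragments at each summit were solved from the deposited fold enrichment and p-value. The background, the number of fragments expected there from the input, was solved with them. The lowest background recurred at many peaks, at 3.68 in Ov1.1, 0.195 in Ov2.1 and 0.102 in Ov3.1. Such a value is a floor shared by the list and not an input count at that place. Clustered peaks had a median of 17 fragments in Ov1.1 (12 to 1466), 4 in Ov2.1 (3 to 8) and 3 in Ov3.1 (3 to 6). The minimum of 3 fragments was met by 46 of 114 clustered peaks (40.4%) against 461 of 1225 isolated peaks (37.6%) in Ov2.1, and by 39 of 57 (68.4%) against 486 of 816 (59.6%) in Ov3.1. No Ov1.1 peak had so few. By the study's own counts, the Ov2.1 ChIP library had more mapped reads than that of Ov1.1. The fragment numbers at summits therefore did not follow the order of total mapped reads. How many of these reads entered peak calling is not in the lists, so a difference in that number was not tested. The part of these fragment numbers in the difference between Ov1.1 and the later stages was not tested.

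Clustered peaks were close to isolated peaks in median signal. The fold enrichment is the linear ratio of ChIP fragments to background after a fixed count, the pseudocount, is added to both. Median backgrounds over all peaks used were 4.46, 0.256 and 0.153 by stage. At the low backgrounds of Ov2.1 and Ov3.1 it lies well below the plain ratio, so it is not a like measure across stages. Fold enrichment had medians of 3.18 in clustered and 3.21 in isolated peaks at Ov1.1. The medians were 3.71 and 3.86 in Ov2.1, and 3.59 and 3.63 in Ov3.1. The highest fold enrichment of a clustered peak was 5.05, 6.69 and 6.35 at the 3 stages, against 7.05, 12.6 and 9.98 among isolated peaks. Among the peaks used, the strongest by fold enrichment was therefore an isolated one at each stage. At Ov1.1 a fold enrichment under 2 was found in 7 of 273 clustered peaks (2.56%) against 11 of 1131 isolated peaks (0.973%). It was found in 6 of the 71 Ov1.1 peaks with a neighbour within 1 kb (8.45%). No Ov2.1 or Ov3.1 peak had so low a value. Median widths were 338 bp in clustered and 329 bp in isolated peaks in Ov1.1, 437.5 and 453 bp in Ov2.1, and 320 and 333 bp in Ov3.1. The medians of the solved fragments were the same in clustered and isolated peaks at each stage.

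A −log10 q of at least 2, that is, a q of 0.01 or less, was reached by 177 of 273 clustered peaks at Ov1.1 (64.8%, 58.9 to 70.5%), against 751 of 1131 isolated peaks (66.4%, 63.6 to 69.2%) and 66.1% of all peaks used. At Ov2.1 it was reached by 46 of 114 clustered peaks (40.4%, 31.3 to 49.9%), against 554 of 1225 isolated peaks (45.2%, 42.4 to 48.1%) and 44.8% of all. At Ov3.1 it was reached by 30 of 57 (52.6%, 39.0 to 66.0%), against 480 of 816 (58.8%, 55.4 to 62.2%) and 58.4% of all. The shares of clustered peaks were near those of their lists. Within Ov1.1, 54 of the 71 peaks with a neighbour within 1 kb reached it (76.1%, 64.5 to 85.4%), against 123 of the 202 other clustered peaks (60.9%, 53.8 to 67.7%), with overlapping intervals. Every member reached a −log10 q of 2 in 48 of the 129 clusters in Ov1.1, 9 of 56 in Ov2.1 and 9 of 28 in Ov3.1. No member reached it in 13, 19 and 7 clusters.

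**Figure D4:**
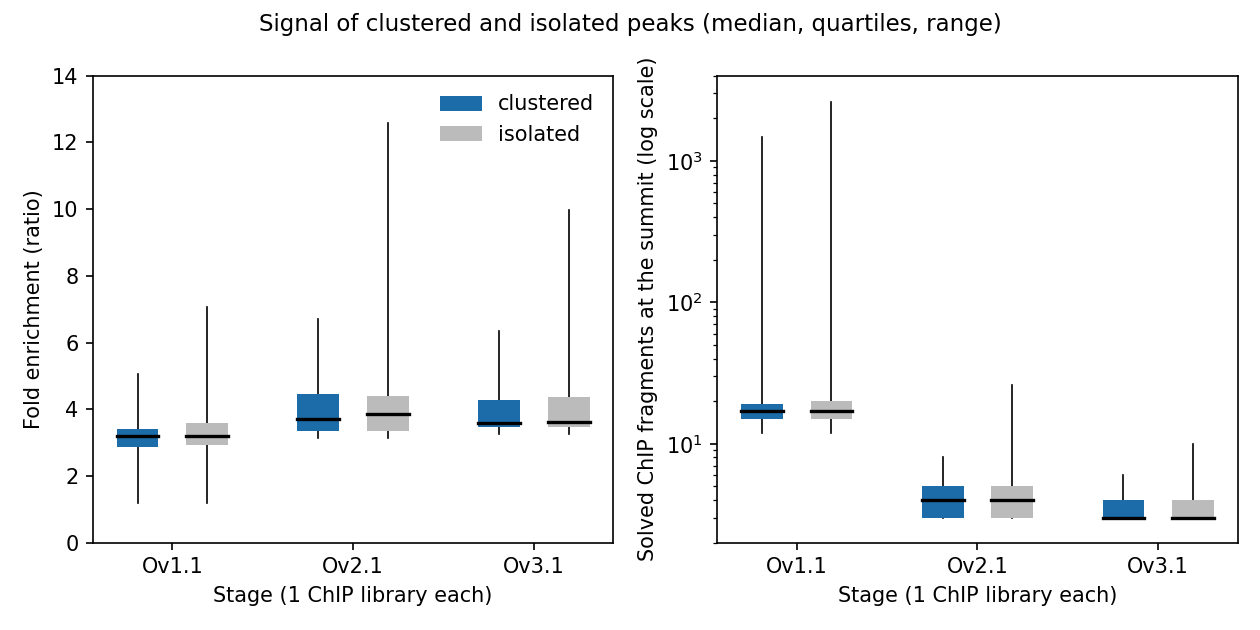
Fold enrichment (left, linear ratio) and solved ChIP fragments at the summit (right, log scale) of clustered (blue) and isolated (grey) peaks at each stage; black bars are medians, boxes quartiles and thin lines the full range. The medians of clustered and isolated peaks were 3.18 and 3.21, 3.71 and 3.86, and 3.59 and 3.63 in fold enrichment, and 17, 4 and 3 fragments in both groups by stage.

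Peaks of a cluster were about as alike in fold enrichment as neighbouring peaks farther apart. The higher value divided by the lower had a median of 1.14 for gaps of up to 10 kb and 1.16 for larger gaps at Ov1.1. It was 1.19 for both kinds of gap in Ov2.1, and 1.07 and 1.16 in Ov3.1. A pair whose fold enrichments differed by less than 1.2 times was found 77 times among 115 pairs in Ov1.1, 26 times among 54 in Ov2.1 and 17 times among 27 in Ov3.1.

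The closest gene of each clustered peak was taken from the study's annotation of the Ov1.1 and Ov2.1 lists. At Ov1.1, 80 of the 129 clusters (62.0%, 53.1 to 70.4%) had all peaks at 1 closest gene, 47 had 2 and 2 had 3, with 180 genes in all. At Ov2.1, 32 of the 56 clusters (57.1%, 43.2 to 70.3%) had 1 closest gene and 24 had 2, with 80 genes in all. Pairs up to 1 kb apart had 1 closest gene in 23 of 25 cases at Ov1.1, and pairs 1 to 10 kb apart in 50 of 90. At Ov2.1 these numbers were 2 of 3 and 30 of 51. Peaks that lie close together more readily share a closest gene by distance alone. No share for random positions was computed beside these, so they do not show that clusters belong to single genes. The genes at clusters shared between the stages numbered 1, which is 0.556% of the Ov1.1 genes and 1.25% of the Ov2.1 genes, whereas all annotated peaks used, with 1301 and 1236 closest genes, shared 88 (6.76% and 7.12%). Shorter lists share less by their length alone, so the genes at clusters were also set against the whole list of the other stage. There, 12 of the 180 Ov1.1 genes at clusters were found among all Ov2.1 genes (6.67%, 3.49 to 11.4%), against 76 of 1122 genes at isolated peaks (6.77%, 5.37 to 8.405%). Likewise, 3 of the 80 Ov2.1 genes at clusters were found among all Ov1.1 genes (3.75%, 0.780 to 10.6%), against 85 of 1160 (7.33%, 5.89 to 8.98%), with overlapping intervals.

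Promoter peaks, up to 3 kb from a start site by the study's classes, were frequent among both clustered and isolated peaks. At Ov1.1, 132 of 273 clustered peaks (48.4%, 42.3 to 54.5%) were promoter peaks, against 498 of 1131 isolated peaks (44.0%, 41.1 to 47.0%), with overlapping intervals. In the nearest promoter class, within 1 kb, lay 57 clustered peaks (20.9%, 16.2 to 26.2%), against 159 isolated peaks (14.1%, 12.1 to 16.2%), and these intervals just met. Exons held 67 clustered peaks at Ov1.1 (24.5%) against 258 isolated peaks (22.8%), introns 27 (9.89%) against 146 (12.9%), and distal intergenic sequence 37 (9.73 to 18.2%) against 181 (13.9 to 18.3%). At Ov2.1, promoters held 48 of 114 clustered peaks (42.1%, 32.9 to 51.7%), against 436 of 1201 annotated isolated peaks (36.3%, 33.6 to 39.1%), again with overlapping intervals. The class within 1 kb held 20 of the Ov2.1 clustered peaks (17.5%, 11.1 to 25.8%) against 193 isolated peaks (16.1%, 14.04 to 18.3%), a smaller difference than at Ov1.1. Distal intergenic sequence held 39 (34.2%, 25.6 to 43.7%) against 517 (43.0%, 40.2 to 45.9%), and exons 11 (9.65%, 4.92 to 16.6%) against 69 (5.75%, 4.50 to 7.22%). In the exon and distal intergenic classes, clustered and isolated peaks of 1 stage were closer to each other than the stages were. At least 1 promoter peak was present in 83 of 129 clusters in Ov1.1 and 31 of 56 in Ov2.1, and 39 and 16 clusters were made of promoter peaks only.

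Among the clusters of 3 or more peaks at Ov1.1, 7 of 14 lay at 1 closest gene, 5 at 2 and 2 at 3. The cluster of 4 peaks lay at Cor0103470.1 on tig00007070:1468535-1472426, with gaps of 546, 474 and 413 bp. Its fold enrichments of 1.44, 1.27, 1.18 and 1.35 were low, on 1214, 1466, 641 and 511 fragments over backgrounds of 840.5, 1156, 544.3 and 377.5. The input background there was far above the median of 4.46 for clustered peaks, and the −log10 q of its first peak was 28.4. A cluster of the same kind lay at Cor0151180.1 and Cor0151190.1 on tig00007306:895652-898829, in promoters within 1 kb. It had fold enrichments of 2.32, 1.66 and 2.09 on 376, 744 and 732 fragments over 161.8, 446.8 and 350.3, and its −log10 q of 64.9 was the highest of any clustered peak. A pair at Cor0033810.1 on tig00007297:352210-353516, 255 bp apart, had 356 and 440 fragments over 134.2 and 319.9, with fold enrichments of 2.64 and 1.37. Of the 273 clustered Ov1.1 peaks, 9 had a background above 100, all of them in these 3 clusters. Of the 1131 isolated Ov1.1 peaks, 21 also exceeded this level. The highest q-value ranks of Ov1.1 clusters thus went to regions rich in input reads and not to those with the highest fold enrichment.

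The highest fold enrichment of a clustered Ov1.1 peak lay in the cluster tig00007207:330735-341280. A peak in an exon of Cor0200050.1 had 24 fragments over 4.87 (fold enrichment 4.26, q = 1.53e-06). The neighbouring promoter peaks of Cor0200060.1, 328 bp apart, had 26 fragments over 4.35 (fold enrichment 5.05, q = 5.13e-09) and 33 over 6.57 (fold enrichment 4.49, q = 8.19e-10). No protein description was held for either gene.

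A cluster on tig00006949:2747867-2752575 lay at Cor0066050.1 and Cor0066060.1, consecutively numbered genes that are both annotated as Histidine kinase 1, in Arabidopsis an osmosensing kinase. The peaks in the promoter of Cor0066050.1, 301 bp apart, had fold enrichments of 3.30 and 3.11 on 16 fragments each. The peak in the promoter of Cor0066060.1, 3401 bp on, had 2.40 on 17 fragments (q = 0.0497), at the edge of the deposited list. Whether reads were shared between these like-named genes was not tested.

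A run of 3 peaks at 1 promoter region was found for Cor0035340.1 on tig00007011:504147-506819, with gaps of 982 and 690 bp and fold enrichments of 3.48, 3.42 and 3.06 on 16, 15 and 20 fragments. This was the shortest cluster of 3 or more peaks, at 2673 bp. At Cor0017750.1 on tig00007111:829137-833984, promoter peaks 299 bp apart had fold enrichments of 2.53 and 3.83, and an intergenic peak 3159 bp on had 2.91. At Cor0016480.1 on tig00006992:5195637-5198677, the exon peak had 3.81, the intergenic peak 578 bp on had 3.19, and the downstream peak 1016 bp further had 2.52. In these 3 clusters the highest and lowest fold enrichments differed by up to 1.51 times.

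Other clusters covered longer stretches. At Cor0149760.1 on tig00007061:555221-566487, exon peaks had fold enrichments of 3.21 and 4.03 (14 and 21 fragments), and a promoter peak 7910 bp away had 3.39 (23 fragments). At Cor0038990.1 on tig00006973:1203196-1211913, promoter, exon and intron peaks had 2.87, 3.50 and 3.64. At Cor0109770.1 on tig00007074:331985-341040, promoter peaks had 2.78 and 2.15, and a distal intergenic peak had 3.57. Each of these 3 clusters had a single closest gene.

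The longest cluster, tig00007062:169138-183477, ran over 3 closest genes. Its middle peak lay in the promoter of Cor0199180.1, annotated as omega-hydroxypalmitate O-feruloyl transferase, an enzyme of suberin synthesis, with a fold enrichment of 2.63 on 23 fragments. The cluster tig00007285:495384-506865 also had 3 closest genes, and its last peak, with a fold enrichment of 3.29 on 21 fragments (q = 0.000905), lay in an intron of Cor0068150.1. That gene is annotated as EMB1444, a basic helix-loop-helix transcription factor named in Arabidopsis for an embryo-defective mutant. The 2 remaining clusters of 3 peaks lay at Cor0200520.1 and Cor0200530.1, and at Cor0125540.1 and Cor0125550.1, with fold enrichments of 2.89 to 3.55.

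**Figure D5:**
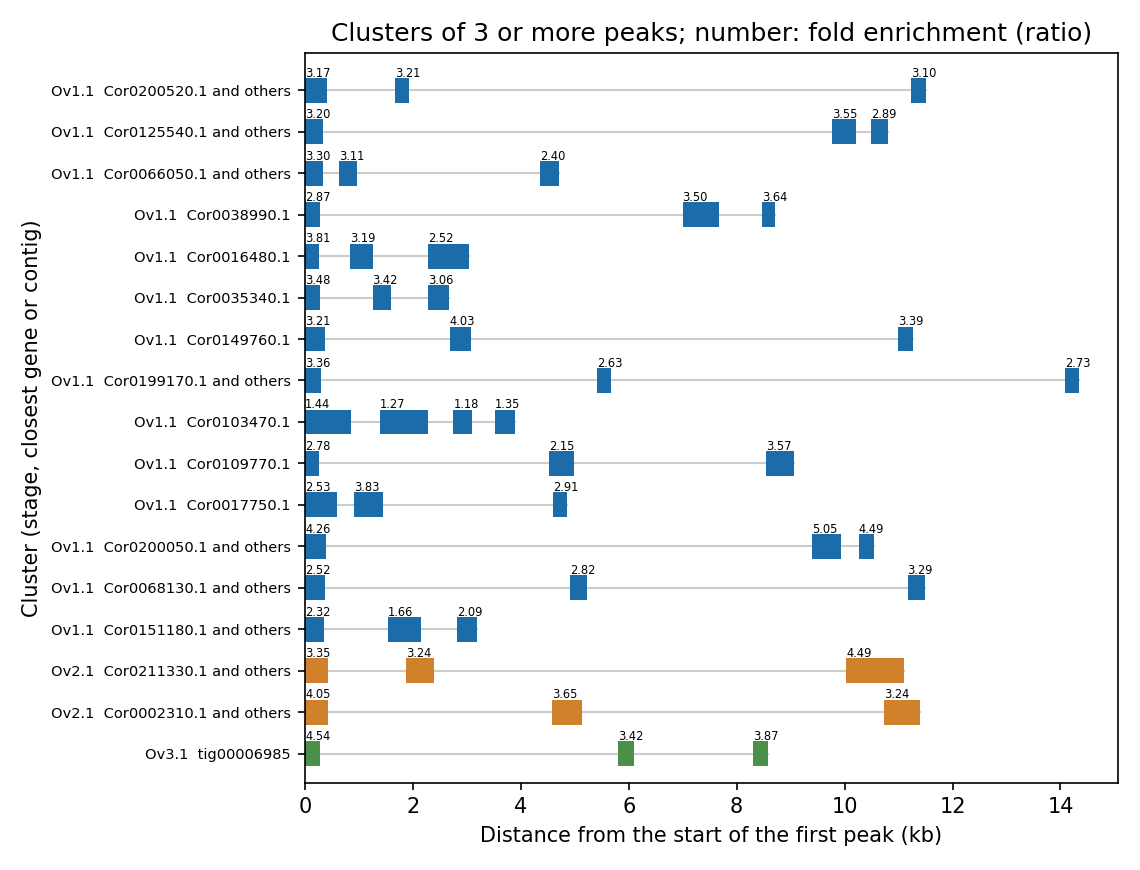
The 17 clusters of 3 or more peaks, drawn to scale as distance in kb from the start of the first peak; each bar is a peak, the number above it its fold enrichment (linear ratio), and colours mark Ov1.1 (blue), Ov2.1 (orange) and Ov3.1 (green). Spans run from 2673 to 14340 bp at Ov1.1, and the cluster of 4 peaks has the lowest fold enrichments, 1.18 to 1.44.

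The smallest gaps at Ov1.1, besides that of Cor0033810.1, were 248 bp at Cor0124380.1 (fold enrichments 2.94 and 2.87) and 274 bp at Cor0146140.1 (3.97 and 3.36). The only clustered Ov1.1 peak whose closest gene carries a symbol in the study's candidate table lay on tig00007149 at Cor0083230.1. It is listed as SOC1/OsMADS50, a MADS-box factor that in rice promotes flowering. Its promoter peak had 14 fragments over 3.68 (fold enrichment 3.21, q = 0.0112), and its neighbour, 7691 bp away, was a promoter peak of a beta-amylase gene, Cor0083250.1, with 18 fragments over 5.36 (2.99, q = 0.00698). The pair therefore lay across different genes.

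At Ov2.1, clusters at genes with a symbol in the candidate table numbered 3. At ERF4 (Cor0221350.1), an ethylene response factor that represses transcription in Arabidopsis, promoter peaks on tig00000191:89673-92908 lay 2545 bp apart. They had 4 fragments over 0.218 (fold enrichment 4.10, q = 0.00516) and 5 over 0.239 (4.84, q = 0.000843). The study also uses this symbol for another gene model. At AGL21 (Cor0032980.1), a MADS-box factor known in Arabidopsis roots, an intron peak and a promoter peak lay 7254 bp apart on tig00007253:1807133-1815334. They had 4 fragments each, over 0.429 and 0.372, with fold enrichments of 3.50 (q = 0.0309) and 3.65 (q = 0.027). At Cor0190850.1, listed as Pla a 2, an exopolygalacturonase that degrades pectin, an intergenic peak with 3 fragments over 0.225 (3.27, q = 0.0314) lay 9621 bp from a promoter peak of Cor0190840.1 with 3 fragments over 0.195 (3.35, q = 0.0309). Each of the 3 clusters rested on 10 fragments or fewer, and both members reached a −log10 q of 2 at ERF4 only.

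The clusters of 3 peaks at Ov2.1 lay at Cor0211330.1 and Cor0211340.1 on tig00002373:118758-129864, and at Cor0002310.1 and Cor0002320.1 on tig00007008:3039410-3050805. The first had fold enrichments of 3.35, 3.24 and 4.49 on 3, 3 and 5 fragments, all in distal intergenic sequence. The second had 4.05, 3.65 and 3.24 on 4, 4 and 3 fragments, all in the promoter class 2 to 3 kb from a start site. Their spans of 11107 and 11396 bp exceeded the median span of 8887 bp of the 14 Ov1.1 clusters of 3 or more peaks.

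The smallest gap at Ov2.1, 540 bp, lay in the promoter of Cor0141110.1 on tig00007130, annotated as NETWORKED 1B, of a family of actin-binding proteins, with fold enrichments of 4.52 and 4.63 on 5 fragments each. The next, 592 bp, lay on tig00006951 between promoter peaks of Cor0201030.1 and Cor0201040.1, the second annotated as bifunctional nuclease 2, with 3.71 and 3.16 on 4 and 3 fragments. A pair 787 bp apart at Cor0055680.1 on tig00006888 had 5.86 (6 fragments, q = 2.28e-05) and 3.35 (3 fragments). The highest −log10 q of a clustered Ov2.1 peak, 6.03, belonged to an intergenic peak at Cor0113710.1 on tig00007323 with 7 fragments over 0.195 (fold enrichment 6.69), whose neighbour at Cor0113720.1 had 3 fragments (3.19). At Cor0028080.1 on tig00007103:3334228-3339863, an intergenic peak had 5.32 on 6 fragments and a promoter peak 6.59 on 8 fragments, the largest number of fragments of a clustered Ov2.1 peak.

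At Ov3.1, closest genes were held for 3 clustered peaks only, so clusters are given by position. The cluster of 3 peaks, tig00006985:2900422-2909007, had gaps of 5517 and 2192 bp and fold enrichments of 4.54, 3.42 and 3.87 on 4, 3 and 4 fragments. The smallest gap, 490 bp, lay on tig00006931 between peaks with 3.53 and 3.54 on 3 fragments each. The next were 756 bp on tig00006886 (3.25 and 4.27 on 3 and 4 fragments) and 1307 bp on tig00006902 (3.63 and 5.44 on 3 and 5 fragments). The highest −log10 q, 6.07, was that of a peak with 6 fragments over 0.102 (fold enrichment 6.35) on tig00007103:4168875-4172905, whose neighbour 3452 bp away had 3 fragments (3.59). On tig00006937 a peak with 6 fragments over 0.151 (6.08, q = 6.91e-06) lay 3576 bp from one with 3 (3.63). In the pairs with the strongest Ov3.1 members the neighbour was at the minimum of 3 fragments. One of the 3 annotated peaks lay at Cor0099100.1, a probable receptor-like protein kinase gene, with 4 fragments over 0.102 (4.54, q = 0.000603), in distal intergenic sequence on tig00007105.

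Clusters of different stages lay within 10 kb of each other in 1 case, on tig00007207, where the Ov1.1 cluster 223295-228957 and the Ov2.1 cluster 234603-243893 lay 5645 bp apart. Their closest gene was Cor0200000.1, the gene shared by the lists above, annotated as putative ABC transporter B family member 8, of a family in which some Arabidopsis members export auxin. The Ov1.1 peaks had 19 fragments over 4.46 (fold enrichment 3.66, q = 0.000452) and, in the promoter, 18 over 5.58 (2.89, q = 0.00986). The Ov2.1 peaks were both intergenic, with 4 fragments over 0.221 (4.10, q = 0.00534) and 3 over 0.266 (3.16, q = 0.0461). The spans of these clusters did not overlap.

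Single clustered peaks were also compared with isolated ones in how often a peak of another stage lay within 10 kb, in 6 comparisons. Of the Ov1.1 clustered peaks, 24 (8.79%, 5.71 to 12.8%) lay near an Ov2.1 peak, against 96 isolated peaks (8.49%, 6.93 to 10.3%), and 9 (3.30%, 1.52 to 6.17%) near an Ov3.1 peak, against 84 (7.43%, 5.97 to 9.11%). Of the Ov2.1 clustered peaks, 4 (3.51%, 0.964 to 8.74%) lay near an Ov1.1 peak, against 108 isolated peaks (8.82%, 7.29 to 10.5%), and 6 (5.26%, 1.96 to 11.1%) near an Ov3.1 peak, against 82 (6.69%, 5.36 to 8.24%). Of the Ov3.1 clustered peaks, 10 (17.5%, 8.75 to 29.9%) lay near an Ov1.1 peak, against 84 isolated peaks (10.3%, 8.29 to 12.6%), and 7 (12.3%, 5.08 to 23.7%) near an Ov2.1 peak, against 83 (10.2%, 8.18 to 12.5%). The share of clustered peaks was lower in 3 of the 6 comparisons and higher in the others, and the intervals overlapped in all 6.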

How the data were processed

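ChIP and input libraries of 3 ovule stages were sequenced, and per the labels and methods the authors aligned reads with Bowtie2 and called peaks in each ChIP list against its input with MACS2, keeping peaks up to a q-value of 0.05. Versions and the handling of duplicate reads, not given in the sources used here, could change the lists. Fold enrichment was deposited as a linear ratio, the deposited p-value and q-value are on the −log10 scale, and the deposited score was not needed. Total depth is not in the lists, so fragments and background were solved from fold enrichment and p-value, within a tolerance of 0.01. The solution took fold enrichment as fragments over background with the pseudocount added to both.

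Gaps were counted edge to edge. Expected numbers came from a formula for non-overlapping peaks placed uniformly within each contig's span, the largest peak end in the 3 lists, with no resampling and no p-value. The computation was tested on simulated data. Closest genes and classes were joined by position from the study's annotation tables, with no expression value used. Protein descriptions were joined by gene and came only from the study's list of differentially expressed targets. A missing description therefore does not mean that a gene is unannotated. Most Ov3.1 annotation was not used here. The genome sequence was not used here, so no sequences are shown.

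The members and lists were chosen with earlier results of these data known. Named at each stage were clusters of 3 or more peaks, the 3 with the smallest gap, the 3 with the highest −log10 q, those at genes with a candidate symbol, those within 10 kb of another stage's cluster, and pairs at 1 described gene. Up to 10 clusters a stage were to be described in full. The Ov1.1 and Ov2.1 clusters beyond these, contigs with many clusters, the receptor-like kinase peak at Ov3.1 and the background limit of 100 were singled out after their values were seen. Alternatives covered the gap limit, q, merging, the left-out contig, contig spans, list size and midpoints. Computations ran in Python 3.11.15 with scipy 1.17.1, pandas 2.3.3 and numpy 2.4.6, and figures were drawn with matplotlib 3.10.9.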

Additional observations from a re-analysis of the deposited data

How the results depend on the processing

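The order of the stages in observed over expected clustered peaks, with Ov1.1 highest, was kept under every alternative tried. Numbers of clustered peaks, in stage order, moved to 180, 58 and 30 with a gap of 5 kb, and to 405, 228 and 111 with 20 kb. With a −log10 q of at least 2 they were 117, 18 and 18. With 873 peaks in every list they were 100 at Ov1.1 and 52 at Ov2.1. The Ov1.1 ratio moved to 2.30 with 5 kb, 1.48 with 20 kb and 1.49 with peaks 1000 bp or less apart merged, the last chosen after seeing the data, and was 1.69 with peaks 500 bp or less apart merged. The Ov2.1 ratio moved to 0.766 with the limit on q, on 18 peaks. With equal lists the ratios were 1.73, 1.03 and 1.18, and with the left-out contig 1.84, 1.08 and 1.40. A limit of 2 on fold enrichment, also chosen after seeing the data, gave 1.80 at Ov1.1. Fewer peaks or a shorter gap lower the counts by construction, and the cause of the other changes was not tested. No paired analysis was possible because each stage had 1 ChIP library. With 3 or 4 fragments behind most Ov2.1 and Ov3.1 peaks, single clusters there rest on few reads.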

Other observations

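Pairs with both peaks at 1 closest gene with a described protein numbered 13 of the 115 pairs at Ov1.1 and 9 of the 54 at Ov2.1. Descriptions were held only for targets that the study lists as differentially expressed, so these pairs were drawn from such genes. At Ov1.1, Cor0209030.1, a G-type lectin receptor-like kinase gene, had intergenic peaks with fold enrichments of 4.58 (24 fragments, q = 2.79e-07) and 2.40 (17 fragments, q = 0.0497), 2428 bp apart. Cor0154390.1, a MAP kinase gene, had exon peaks 612 bp apart with 3.24 and 3.21. Leucine-rich repeat receptor kinase genes Cor0044110.1 and Cor0070010.1 had pairs with 2.85 and 2.54, and with 2.82 and 2.41. Cor0070930.1, annotated as BRI1 kinase inhibitor 1, which in Arabidopsis inhibits the brassinosteroid receptor, had a downstream and an exon peak 320 bp apart with 2.89 and 3.16.

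At the same stage, Cor0047340.1, annotated as ATP-dependent 6-phosphofructokinase 3, an enzyme of glycolysis, had a promoter and an exon peak 1671 bp apart with fold enrichments of 3.56 and 3.61. Cor0121700.1, annotated as beta-galactosidase 9, had a promoter and an intron peak 7486 bp apart with 3.03 and 3.56. At Ov2.1, Cor0105520.1, annotated as UDP-glycosyltransferase 82A1, had an intergenic and an intron peak 8205 bp apart with 5.005 and 4.70 on 6 and 5 fragments, and Cor0186400.1, a probable glycosyltransferase gene, had peaks with 3.35 and 3.89 on 3 and 4 fragments. These pairs were named after their values were seen, and no gene group was tested.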
